A study of Saccharomyces cerevisiae with 5 samples.

Results

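The UBX-domain genes of budding yeast encode 7 proteins that attach to the ATPase Cdc48, and the barcode readings of their 7 deletion strains are described here on 5 two-colour microarrays. The strains were found by gene symbol (SHP1, UBX2, UBX3, UBX4, UBX5, UBX6 and UBX7) in the platform annotation, which gave each gene 1 strain and each strain 2 tags, so that 14 of 10888 tags and 7 of 5444 strains are covered. The family was selected on the mixed-array values of UBX3, whose tags both stood about 4 log2 units apart between the pools. The comparison of the mixed array with the Pool A arrays is therefore a description for these strains, with no p-value. The rule that picked the family did not name the other comparisons. They do contain the same Pool A readings, and the members were chosen with earlier results of these data known. For UBX3 the other comparisons are therefore not independent of the choice.

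Every strain is a diploid that lost 1 of its gene copies and carries a UPTAG and a DNTAG, a pair of short DNA barcodes, at the deleted locus. Pooled strains were grown on YPD agar, and the barcodes were amplified from genomic DNA of frozen aliquots in separate UPTAG and DNTAG reactions of 50 cycles. On 3 arrays Pool A filled both channels (Pool A self-self), on 1 array Pool B filled both (Pool B self-self), and on 1 array Pool A was labelled with Cy3 and Pool B with Cy5 (the mixed array). By the series design, 94 strains entered the pools in unequal amounts: they were put into Pool B at 1:1, 1:8 or 1:64 and were diluted by a further 0.33 to 5 log2 units for Pool A, or left out of it, while the remaining strains were equal. The labels do not say which strains these were, so the intended amount of each UBX-domain strain is not known here.

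Cdc48, called p97 or VCP in animals, is a ring-shaped ATPase that pulls ubiquitin-tagged proteins out of complexes and membranes, often on their way to the proteasome. Its adaptors decide where it works and on what, and the UBX domain is a ubiquitin-like fold that docks on the N-terminal part of Cdc48. Shp1 is the yeast counterpart of mammalian p47, Ubx2 and Ubx4 serve protein degradation at the endoplasmic reticulum, Ubx3 belongs to a membrane ubiquitin ligase complex of the Golgi and endosomes, Ubx5 acts on nuclear substrates, and Ubx6 and Ubx7 are paralogs with less defined roles. A barcode array does not read the activity of these genes. It reads how much tag DNA of each strain reached each channel.

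All values below are log2 ratios of the 2 channels after subtraction of each array's median over its named spots, and positive values are taken as more Cy5 than Cy3. That direction is not stated and is called likely only. It rests on the design, in which unequal strains were diluted further in Pool A, and on 14 positive against 2 negative strains with both tags at least 2 log2 units apart on the mixed array. UBX3 is 1 of the 14. Strains called there by limma (adjusted p under 0.05), whatever their size, leaned the other way, with 84 positive and 318 negative. The 2 tags are called first and second by their block on the array, since the block that holds the UPTAGs is not given. Each UBX-domain tag rests on 1 spot per array. Nothing in the labels gives the 3 Pool A arrays separate cultures or DNA preparations, so their spread, and every standard error (SE) built on it, may be technical. Over the 14 tags the SD between these 3 arrays had a median of 0.16 and ran from 0.10 to 0.38, beside a median of 0.18 over all tags.

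**Figure D1:**
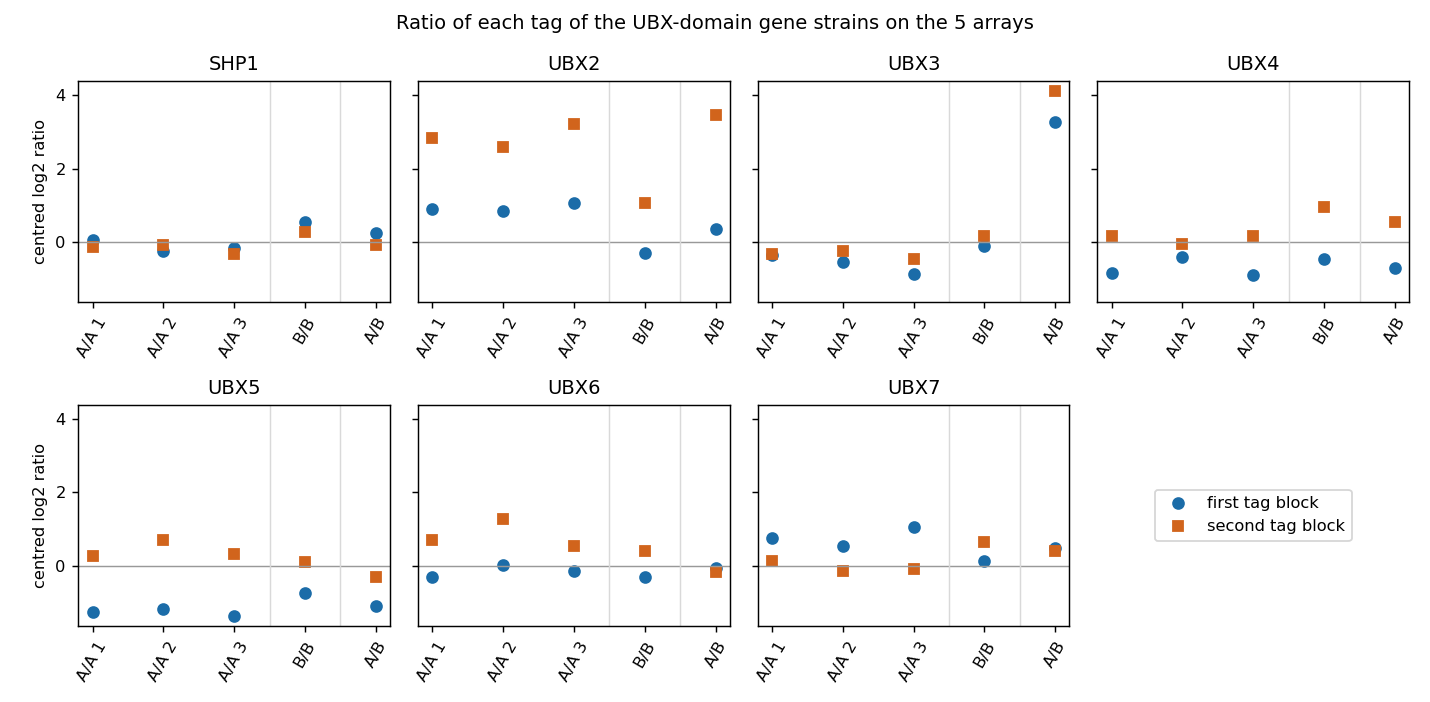
Centred log2 ratio (vertical axis) of the first tag (circles) and second tag (squares) of each UBX-domain strain on the 3 Pool A self-self arrays (A/A 1 to 3), with Pool B in both channels (B/B) and on the mixed array (A/B); each point is 1 array. UBX3 rises to 3.27 and 4.11 on the mixed array only, while UBX2 is high on the Pool A and mixed arrays, its second tag reaching 3.45.

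UBX3 (YDL091C, chromosome IV) was the UBX-domain strain that stood apart between the pools. With Pool A in both channels its first tag read -0.34, -0.53 and -0.86 over the 3 arrays; it read -0.09 with Pool B in both channels and 3.27 on the mixed array. Its second tag read -0.32, -0.25 and -0.46 on the Pool A arrays, 0.17 on the Pool B array and 4.11 on the mixed array. Both tags were thus near or below 0 wherever the same pool filled both channels, and far above 0 where Pool B was set against Pool A. The mixed array minus the Pool A mean was 3.84 ± 0.26 (SE) for the first tag and 4.45 ± 0.24 for the second, and 4.14 ± 0.20 for their mean, a 17.7-fold ratio and the fifth highest of 5444 strains. These are the values that chose the family, and as there was 1 mixed array they have no repeat. The mean lay below the largest stated dilution step of 5 log2 units, and it was 3.12 ± 0.16 with quantile normalization between arrays. Some strains were left out of Pool A, and the unequal strains are not named. The comparison with that step therefore does not place UBX3 among them.

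The 2 UBX3 tags come from separate PCRs, and their differences from the Pool A mean lay 0.60 apart. In the mixed-array readings themselves the first tag minus the second was -0.84. Gaps below are between such differences. Among the 24 strains with a difference of at least 2, 9 had a smaller gap between their tags, the median gap was 0.80 and the largest was 5.21. Over all strains, most of which hardly differed between the arrays, the median gap was 0.41.

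None of the other 6 strains came near this difference. Limma's threshold (adjusted p under 0.05 over all strains) was passed on the mixed array by 1 of the 7 strains, UBX3, where 7.38% of all 5444 strains passed, and by 3 of the 14 tags, where 8.4% of all tags passed. As this contrast chose the family, nothing is read from these counts. The third tag was the second tag of UBX6.

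Of the adaptors that serve the endoplasmic reticulum, UBX2 (YML013W, chromosome XIII), which encodes the membrane anchor that brings Cdc48 to the degradation machinery there, differed by -0.007 ± 0.202 on the mixed array. This mean joined a first tag at -0.59 ± 0.24 and a second at 0.57 ± 0.26, so the tags lay on either side of 0. That did not hold in every setting: both tags were negative with quantile normalization (-0.44 and -0.66), and both were positive against the Pool B array alone (0.63 and 2.38; strain 1.501). UBX4 (YMR067C, chromosome XIII), which acts with Cdc48 on proteins being extracted from that membrane, differed by 0.23 ± 0.19, with 0.004 ± 0.258 and 0.46 ± 0.24 for its tags. SHP1 (YBL058W, chromosome II), whose product also regulates the protein phosphatase Glc7, differed by 0.23 ± 0.19, with both tags above 0. Without centring, where the median of all strains was -0.49, SHP1 and UBX4 both lay at -0.19, and against the Pool B array alone both lay at -0.32.

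UBX5 (YDR330W, chromosome IV), whose product takes part in removing stalled RNA polymerase II, differed by -0.29 ± 0.20. Its second tag fell below all 3 Pool A readings, at -0.30 on the mixed array beside 0.28, 0.71 and 0.33, and its first tag, at -1.09, lay just above the Pool A range. Of the paralogs, UBX6 (YJL048C, chromosome X) differed by -0.47 ± 0.21 and UBX7 (YBR273C, chromosome II) by 0.07 ± 0.20, and the difference between them was not tested. UBX6 lay at 0.08 with the most variable spots left out, which removes its second tag, and at -0.17 against the Pool B array alone. In UBX6 the second tag read -0.18 on the mixed array, beside 0.72, 1.28 and 0.55 on the Pool A arrays. Its first tag, at -0.05, stayed within the Pool A range. The second tag of UBX6 differed by -1.02 ± 0.27, and its Pool A readings had the largest SD of the 14 tags.

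**Figure D2:**
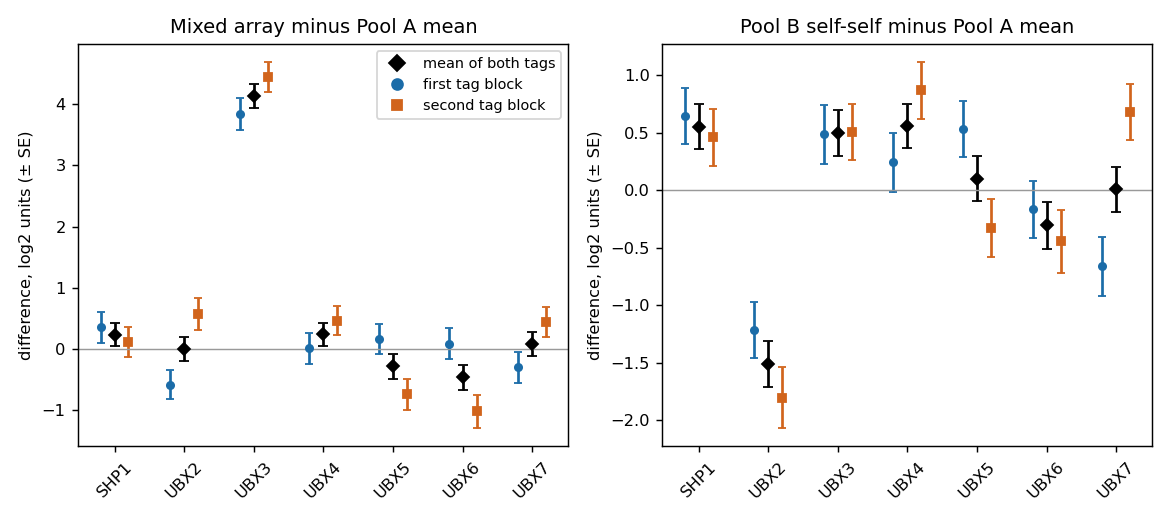
Difference in log2 units (± SE from limma) of the mixed array (left) and of the Pool B self-self array (right) from the Pool A self-self mean, for the mean of both tags (diamonds), the first tag (circles) and the second tag (squares) of each strain; the vertical scales differ. UBX3 stands at 4.14 on the left, and UBX2 at -1.51 on the right.

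With Pool A in both channels, every strain should give the same ratio, and the distance from 0 shows what a tag reads when nothing differs. UBX2 was far from 0 here. Its mean over both tags was 1.86, 1.72 and 2.14 on the 3 arrays, or 1.91 ± 0.21 (SD, n = 3), the fifth highest of 5444 strains (limma, adjusted p = 7.93e-14). Its second tag read 2.83, 2.59 and 3.21, a 7.34-fold ratio between dyes for the same pool, and ranked 18th from the top of 10888 tags. Its first tag read 0.89, 0.85 and 1.07, so both tags were on the same side and the second was the further one. Of the 7 strains 6 departed from 0, all except SHP1, where 44.9% of all strains did; by tag 9 of 14 departed, beside 48.3% of all tags. The median size of the departure was 0.38 in the 7 strains and 0.21 in all strains.

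The departures of the other strains were small. UBX7 lay at 0.38 ± 0.15 (SD, n = 3) and UBX6 at 0.36 ± 0.26. SHP1 lay at -0.14 ± 0.10 (limma, adjusted p = 0.24), UBX4 at -0.30 ± 0.08, UBX5 at -0.40 ± 0.16 and UBX3 at -0.46 ± 0.17. In this order the ranges over the 3 arrays did not overlap between UBX2 and UBX7 or between UBX6 and SHP1, and each of the other 4 neighbouring pairs overlapped. Adjusted p for the departing strains after UBX2 ran from 5.19e-04 (UBX3) to 0.0125 (UBX4) by limma. Without centring, 2 strains still departed from 0, UBX2 and UBX3. The call for UBX6 rested on Pool A replicate 2, where it read 0.66 against 0.21 on both other arrays. Without that array it lay at 0.21 ± 0.14 (SE; limma, adjusted p = 0.249). Without replicate 3 the calls for UBX7 (0.33, adjusted p = 0.056) and UBX4 (-0.27, adjusted p = 0.12) ended by limma.

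The 2 tags of a strain often disagreed although they mark the same cells. Where both channels held Pool A, the first tag minus the second was -1.94 ± 0.16 (SE) for UBX2, -1.69 ± 0.16 for UBX5, -0.98 ± 0.16 for UBX6, -0.80 ± 0.17 for UBX4 and 0.82 ± 0.16 for UBX7. Limma called these 5 of the 7 strains, beside 64.1% of all strains, with adjusted p from 3.45e-13 (UBX2) to 7.82e-05 (UBX4). SHP1 (0.07 ± 0.16) and UBX3 (-0.23 ± 0.16) were not called (limma, adjusted p = 0.72 and 0.209). Most strains leaned the same way, with a median of -0.44 over all 5444, and UBX7 was among the 8.69% of strains that were called with the first tag as the higher one. With each block centred separately, which removes that lean, SHP1 was called at 0.48 (limma, adjusted p = 0.00693) and UBX4 was not at -0.40 (adjusted p = 0.0563).

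UBX5 showed what such a disagreement does to a strain's mean. Its first tag read -1.24, -1.16 and -1.35 on the Pool A arrays and its second 0.28, 0.71 and 0.33, and limma placed both away from 0 in opposite directions (adjusted p = 1.75e-08 and 0.00594). Behind the strain mean of -0.40 stood a first tag with only 0.946% of all tags below it. The second tag's call ended without replicate 1 (0.52, adjusted p = 0.053) and without replicate 2 (0.30, adjusted p = 0.177), without centring (0.36, adjusted p = 0.216) and with each block centred separately (0.23, adjusted p = 0.092), all by limma. In UBX3, where both tags lay below 0, the call for the second (-0.34 ± 0.12, SE) ended without any 1 of the 3 arrays, at -0.28 to -0.39 (limma, adjusted p from 0.0609 to 0.22).

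**Figure D3:**
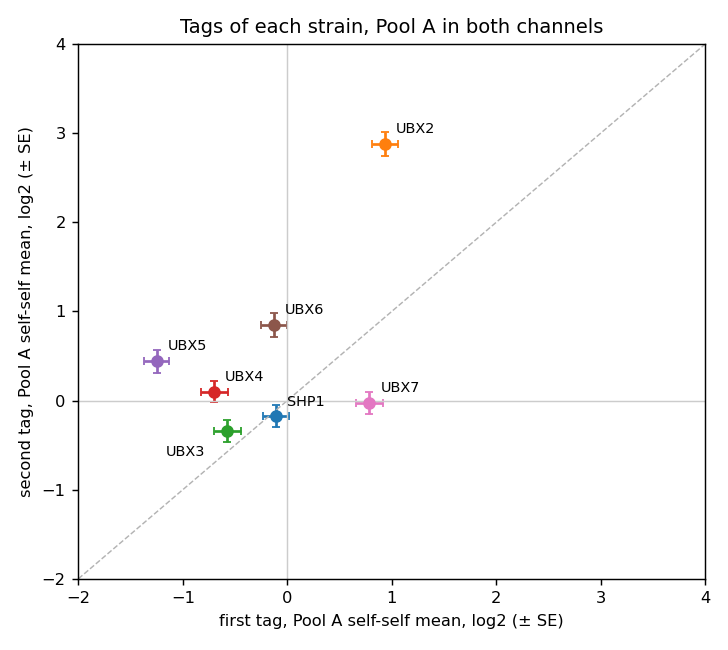
Pool A self-self mean (3 arrays, ± SE from limma) of the first tag (horizontal axis) against the second tag (vertical axis) of each UBX-domain strain, both as centred log2 ratios; the dashed line marks equal tags. UBX2 lies at 0.94 and 2.88, UBX5 at -1.25 and 0.44, and UBX7 is the strain well below the line, at 0.79 and -0.03.

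The Pool B self-self array also set a pool against itself, so no strain was meant to differ from the Pool A self-self arrays. It was hybridised once and carries a different title date from the other 4 arrays, so pool, date and array cannot be told apart, and its spread is taken from the Pool A arrays. Limma called 3 of the 7 strains and 3 of the 14 tags on it, beside 21.9% of all strains and 21.2% of all tags. UBX2 differed by -1.51 ± 0.20 (adjusted p = 1.66e-05), the 15th largest size of 5444 strains, and did so with both tags: the first read -0.28 after a Pool A mean of 0.94, the second 1.07 after 2.88. The UBX2 tags, far above 0 with Pool A in both channels, were thus much closer to it with Pool B in both, and the mixed array, at 0.35 and 3.45, had the first tag between these levels and the second above both. The Pool B difference of UBX2 subtracts its high Pool A mean, so it is not separate evidence from the departure of that mean from 0.

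SHP1 differed by 0.55 ± 0.19 (limma, adjusted p = 0.0406) and UBX4 by 0.56 ± 0.19 (adjusted p = 0.0386). Both calls were lost without Pool A replicate 2, without replicate 3 and with arrays scaled to one spread, where limma's adjusted p ran from 0.0711 to 0.138. Without centring the median of all strains was -0.72. SHP1 and UBX4 then both lay at -0.14, UBX3 at -0.19, UBX5 at -0.59 and UBX7 at -0.68, all below 0 but above that median, and UBX6 was called at -0.999 (limma, adjusted p = 0.0297). SHP1 had both tags higher (0.65 and 0.46, neither called), while UBX4 had its second tag called (0.87 ± 0.24, adjusted p = 0.0137 by limma) and its first at 0.24 ± 0.26. That tag's call ended without centring (0.17, adjusted p = 0.748 by limma) and without Pool A replicate 2 (0.80, adjusted p = 0.0524). Without Pool A replicate 1 limma called none of the 14 tags, although 7 had an unadjusted p under 0.05, the UBX2 tags included.

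UBX3 differed by 0.50 ± 0.20 on the Pool B self-self array (limma, adjusted p = 0.0708), with 0.49 and 0.51 for its tags. This is small beside its 4.14 on the mixed array, and both differences share the Pool A reference. Against the Pool B array alone the mixed array stood 3.65 ± 0.24 higher for UBX3. The settings that follow concern its Pool B minus Pool A difference of 0.50, not the mixed array. The adjusted p fell under the threshold, from 0.0217 to 0.0404 by limma, with the blocks centred separately, with quantile normalization, with the most variable spots left out and without Pool A replicate 1. Without centring UBX3 turned to -0.19 (limma, adjusted p = 0.662). UBX5 (0.10 ± 0.20), UBX6 (-0.30 ± 0.21) and UBX7 (0.01 ± 0.20) were not called (limma, adjusted p from 0.303 to 0.976). The UBX7 mean joined a first tag at -0.66 ± 0.26 and a second at 0.68 ± 0.25, neither of them called (limma, adjusted p = 0.0685 and 0.0511). Without centring these read -1.35, which limma called, and -0.01. With quantile normalization they lay at -0.59 and 0.79, and limma called both. Both were also called with the most variable spots left out. The second tag alone was called with each block centred separately and with the median of spots.

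Readings were also set side by side array by array, without a model. The Pool B reading lay outside the range of the 3 Pool A readings in 12 of the 14 tags, 7 above and 5 below, where 75.9% of all tags did. The mixed reading lay outside it also in 12 of the 14, 8 above and 4 below, where 68.6% of all tags did.

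The genes that work with these adaptors were measured in the same pools. A list of Cdc48 itself, its core cofactors, the endoplasmic reticulum degradation machinery and ubiquitin shuttle proteins held 23 genes, of which 22 had a strain (UBC6 was not matched). CDC48 (YDL126C), the ATPase that the UBX proteins dock on, differed by -0.03 ± 0.20 on the mixed array, with tags at -0.60 and 0.54. UFD1 (-0.08 ± 0.21) and NPL4 (-0.19 ± 0.19), which encode the heterodimer that feeds ubiquitinated substrates to Cdc48, were not called either. On the mixed array limma called 1 of the 22 strains, with 7.38% called overall. The list's median was -0.14, that of the 7 UBX-domain strains 0.07 and that of all strains -0.06. The highest strain of the list was CUZ1 at 0.47, so none approached UBX3.

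DSK2 (YMR276W), a ubiquitin shuttle gene that brings substrates to the proteasome, was the strain of the list furthest from 0 in all 3 comparisons. It differed by -0.77 ± 0.19 on the mixed array (limma, adjusted p = 0.013), by -1.43 ± 0.19 in the Pool B comparison (adjusted p = 1.62e-05) and lay at 1.18 ± 0.10 (SE) with Pool A in both channels (adjusted p = 3.31e-10). Both differences subtract this same high Pool A mean, so the 3 values are not separate evidence. The tags of DSK2 had the same sign as each other in each comparison. The Pool B self-self array gave 7 called strains in the list, 2 positive and 5 negative, and the Pool A arrays against 0 gave 12, of which 7 were positive. As shares these were 31.8% and 54.5%, beside 21.9% and 44.9% of all strains.

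On the mixed array, the strains next to UBX3 in gene order read differently from those next to the other UBX-domain genes. Whether genome position plays a part was not tested. The 2 nearest strains on each side of UBX3 in gene order on chromosome IV all had positive differences on the mixed array: PMT5 (a protein mannosyltransferase gene) 3.81, SRP14 (signal recognition particle) 2.36, RAM1 (protein farnesyltransferase) 1.14 and NUR1 (a nuclear rim protein gene) 0.69. On the Pool B self-self array these 4 differed by 0.33 to 0.75, and both sets of differences share the Pool A mean, which was below 0 in all 4 strains. Their tags agreed less well than those of UBX3 in PMT5 (1.51 and 6.12) and SRP14 (4.27 and 0.45). In RAM1 (0.89 and 1.39) and NUR1 (0.67 and 0.72) the tags lay closer together than those of UBX3. The 24 neighbours of the other 6 genes had a median of -0.22 on the mixed array and ran from -0.81 to 0.50. UBX5, on the other arm of the same chromosome, had neighbours between -0.27 and 0.01.

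**Figure D4:**
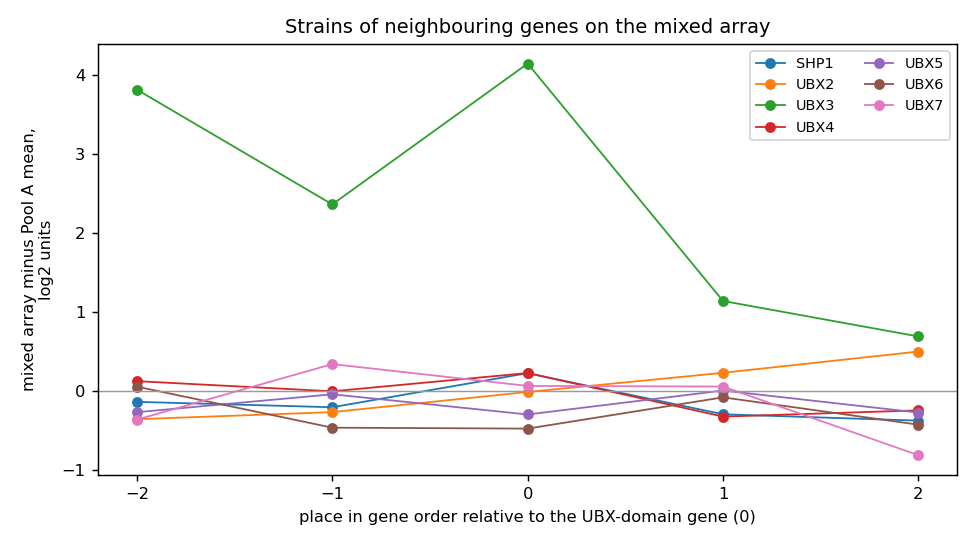
Mixed array minus the Pool A self-self mean, in log2 units, for each UBX-domain strain (place 0) and the 2 nearest strains on each side in gene order (places -2 to 2), 1 line per gene. The UBX3 line lies between 0.69 and 4.14, and the neighbours of the other 6 genes lie between -0.81 and 0.50.

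Over all 10 readings of a strain (5 arrays, 2 tags), the strain most like UBX3 was PFA5, a palmitoyltransferase gene, at a Euclidean distance of 1.03 log2 units. ECM11 (1.11), MRK1 (1.40), THI3 (1.41) and MDH3 (1.45) followed, and the median distance of all strains from UBX3 was 5.62. All 5 lie on chromosome IV. This likeness includes the mixed array that chose UBX3 and is a description only.

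No other UBX-domain strain was close to UBX3 or UBX2. UBX3 lay at least 5.27 from every other member and UBX2 at least 5.52, while the nearest pairs were SHP1 and UBX7 (1.81) and UBX4 and UBX5 (1.81). The median distance of all strains was 5.62 from UBX3 and 6.24 from UBX2, so both lay far from most strains, not from the family alone. It was 1.82 from SHP1, 2.44 from UBX7, 1.89 from UBX4 and 2.43 from UBX5. The nearest pairs were thus little closer than the medians of SHP1 and UBX4. The paralogs UBX6 and UBX7 were 2.53 apart, beside medians of 1.86 and 2.44. The nearest strain to UBX2 was CPR6 (1.59), a cyclophilin gene. For SHP1, UBX4, UBX5, UBX6 and UBX7 the nearest strains were YFR057W, YPL034W, ARO2, YFT2 and MAP2, at 0.28 to 0.56.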

How the data were processed

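The authors deposited 1 log2 ratio of the 2 channels per spot and array, for 22575 spots, with 0 missing. Base 2 was inferred: as powers of 2, 100% of the ratios below 1.5 came out with 3 decimals. Scanner, background treatment, normalization and direction were not given in the sources used here, spot brightness was not analysed here, and the number of arrays limits the precision. Spots were named by the platform annotation supplied with the values (18794 named), and a gene table of assembly R64 gave identifiers, chromosomes and gene order. The files name no build, so no coordinates are printed. Spots of a tag were averaged, and both tags of a strain were averaged.

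Arrays were centred on the median of their named spots, which had been -0.33, 0.07 and 0.03 (Pool A), -0.77 (Pool B) and -0.50 (mixed). Linear models were fitted over all strains or all tags with limma 3.58.1 in R 4.3.3, with 3 groups, two-sided tests and Benjamini-Hochberg adjustment; all residual spread comes from the 3 Pool A arrays. The fit was also run on simulated data in which every array was given the spread of the Pool A arrays. That run could not test whether a lone array varies like them. All 7 members, the 2 neighbours on each side, a Cdc48 pathway list (CDC48, UFD1, NPL4 and the strain furthest from 0 are named) and the nearest strains by Euclidean distance are named. The highest member of that list on the mixed array was named after its value was seen. Members and lists were chosen with earlier results of these data known. Alternatives were no centring, separate centring of blocks, scaling, quantile normalization, the median of spots, the tenth of spots with the highest Pool A SD left out, other reference arrays and each Pool A array left out.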

Additional observations from a re-analysis of the deposited data

Results flagged for a closer look

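A difference between the pools' self-self arrays was found for 3 UBX-domain strains by limma's test of Pool B minus Pool A. UBX2 read lower with Pool B in both channels, by -1.51 as a strain, -1.21 in its first tag and -1.80 in its second. These differences subtract its high Pool A mean. SHP1 read higher by 0.55. UBX4 read higher by 0.56 as a strain and by 0.87 in its second tag. The strain calls for SHP1 and UBX4 were lost without Pool A replicate 2, without replicate 3 and with scaling. Both strains turned to -0.14 without centring. The second-tag call of UBX4 ended without replicate 1, without replicate 2 and without centring. In this comparison 21.9% of all strains were called, and with a lone Pool B array the pool, the title date and the array cannot be told apart. No group had the 4 arrays that a check for single outlying arrays needs.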

How the results depend on the processing

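UBX3 stayed between 3.12 and 4.21 on the mixed array and UBX2 between 1.79 and 2.00 (Pool A against 0) and between -2.20 and -1.39 (Pool B minus Pool A) in the settings run. The median of spots could not move these values, since each member tag has 1 spot. Leaving out the variable spots also left them unchanged. On the mixed array the strains called numbered 2 (UBX3 and UBX2) with the Pool B array as the reference. Leaving out single Pool A arrays gave 1 (replicate 1) to 3 called tags on the mixed array. For Pool B minus Pool A it gave 1 called strain, UBX2, without replicate 2 or 3 and 4 without replicate 1, and 0 (replicate 1) to 3 tags, scaling gave 1 strain, and 7, 7 and 6 tags were called with separate centring of blocks, quantile normalization and the variable spots left out. For Pool A against 0, 2 strains were called without centring. UBX6, whose second tag is among the variable spots, turned to -0.13 there when they were left out, and SHP1 and UBX4 turned to -0.14 without centring in Pool B minus Pool A, where the uncalled UBX3, UBX5 and UBX7 also turned below 0 (-0.19 to -0.68) and UBX6 was called at -0.999. Over all features the counts moved further. On the mixed array the called strains were 33 (27 positive, 6 negative) with all 4 self-self arrays as reference and 828 with the variable spots left out, beside 402 (84 and 318), and the split was 108 and 190 with quantile normalization. Called tags there ran from 12 without replicate 1 to 1651, beside 915. In Pool B minus Pool A, 1899 strains (5 positive) were called without centring and 1447 (754 positive) with blocks centred separately, beside 1190 (465 positive), and called tags ran from 0 (4977 at an unadjusted p under 0.05) to 3530, beside 2310. In Pool A against 0, strains ran from 834 to 2734, beside 2443. The causes were not tested. No paired analysis was possible because the groups share fewer than 2 replicate numbers.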

Other observations

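The order of the 2 tags of UBX7 and UBX6 was not the same on every array. In UBX7 the first tag minus the second was 0.64, 0.67 and 1.14 with Pool A in both channels, -0.52 with Pool B in both and 0.07 on the mixed array. In UBX6 it was -1.02, -1.24 and -0.68 on the Pool A arrays, -0.70 on the Pool B array and 0.13 on the mixed array. In UBX2 it was -1.93, -1.75 and -2.14, then -1.35, and widened to -3.10 on the mixed array, where the strain mean (1.90) matched the Pool A mean (1.91). The change between arrays was not tested.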
